A study of Mus musculus with 6 samples.

Results

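Chemokines, interleukins, colony stimulating factors and interleukin receptors were examined in E1A;HrasG12V mouse embryonic fibroblasts with and without functional p53. The members were all genes of the deposited count table whose symbols begin with Cxcl, Ccl or Il and a digit, together with Cx3cl1, Csf1, Csf2, Csf3 and Lif, with Cxcl10 left out. This rule gave 123 of the 23420 genes: 82 secreted factors, 40 receptors or receptor subunits, and 1 enzyme, Il4i1. The secreted factors were 13 CXC and CX3C chemokines (Il8, an older symbol of Cxcl15, among them), 24 CC chemokines, 37 interleukins, 4 colony stimulating factors with Lif, and 4 soluble antagonists or binding proteins. Chemokine receptors did not fall under the rule and are described with the other pathway genes.

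All cells carried the adenoviral oncogene E1A and the activated Ras allele HrasG12V on a mixed 129/Sv-C57BL/6 background. Every library is labelled with 5% oxygen and a recovery of 24 h. There were 3 lines, and RNA of each was sequenced once with the control guide sgNTC, which leaves p53 wild-type, and once with the p53 guide sgp53(1), here sgp53, which gave 6 libraries. By the labels, p53 is null in sgp53 lines 1 and 3 and functionally inactive in sgp53 line 2. The sample descriptions of lines 2 and 3 share a number that line 1 lacks. The labels do not say whether a line is a clone or comes from its own embryo, so p-values measure the spread between these libraries.

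Library totals lay between 27503577 and 35860866 counts, of which the 123 members took between 0.0995% and 0.143%. Trp53, the targeted gene, had 206, 277 and 253 CPM (counts scaled to a common library total) in lines 1, 2 and 3 of sgNTC and 71.1, 72.0 and 113 CPM in sgp53 (log2 fold change -1.52 with SE 0.21; adjusted p by edgeR = 0.0168). The p53 targets Cdkn1a (697 ± 44.1 to 86.3 ± 13.6 CPM), Mdm2 (901 ± 146 to 136 ± 11.9 CPM) and Ccng1 (805 ± 191 to 72.6 ± 7.51 CPM; SD, n = 3 each) were called lower. The Trp53 call itself was kept in 8 of 17 alternative analyses. Vim, a marker of mesenchymal cells, stood at 3121 ± 322 and 2688 ± 272 CPM and made up most of the sum of the 10 fibroblast markers (3041 to 3839 CPM in sgNTC and 3321 to 5358 CPM in sgp53). The median log2 fold change of the 10 was 3.23, and Col1a1, Col1a2 and Fap were called higher. Col1a1, a collagen chain, was at 12.6, 5.18 and 8.91 CPM in lines 1, 2 and 3 of sgNTC and at 412, 221 and 744 CPM in sgp53, higher in every line (edgeR adjusted p = 0.00728). Col1a2 was at 10.97 ± 6.46 and 395 ± 339.6 CPM, and Fap at 0.109 ± 0.0413 and 0.967 ± 0.579 CPM. Fap had 5, 3 and 2 counts in sgNTC and 23, 18 and 46 in sgp53. It passed the filter on low counts through sgp53 alone, so the filter favoured a gap in this direction. Thy1, which was not called, was at 0.240, 4.06 and 0.406 CPM in sgNTC and 4.30, 3.36 and 53.9 CPM in sgp53. Of 9 leukocyte and macrophage markers, Emr1, Tyrobp and Aif1 had no count and Ptprc at most 2 counts in a library. The summed level of that list was 11.8 to 16.0 CPM in sgNTC and 7.82 to 8.28 CPM in sgp53, with the lysosomal gene Cd68 at 9.23 ± 1.58 and 3.68 ± 0.212 CPM. Of 6 lymphocyte markers, 5 had no count (sum at most 0.171 CPM), and 5 endothelial markers summed to 1.96 to 2.68 CPM in sgNTC and 1.64 to 1.82 CPM in sgp53. The 6 epithelial markers summed to 259 to 646 CPM in sgNTC and 88.7 to 132 CPM in sgp53. Krt18 made up most of this sum, at 415 ± 199.7 and 66.7 ± 23.8 CPM. Of the 4 epithelial markers tested, 3 had a negative log2 fold change. The other, Cdh1, was at 3.46 ± 0.837 and 3.69 ± 1.30 CPM. The part of these marker levels in the results was not tested.

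Chemokines are small secreted proteins that bind receptors coupled to G proteins and direct the movement of leukocytes and other cells. Interleukins and colony stimulating factors bind receptors on the cell surface whose subunits are often shared: Il6st encodes gp130, the signalling subunit for IL-6, IL-11 and LIF, and Il1rap encodes the accessory chain of the IL-1 receptor and of the IL-33 receptor. Fibroblasts are a known source of Cxcl12, Ccl2, Csf1 and members of the IL-6 family, and transformed or senescent fibroblasts can secrete many of them.

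The 250 bases upstream of the RefSeq start (GRCm38.p6, the assembly that mm10 denotes) are shown for both members that passed the test, Cxcl12 and Il6st, and for Lif, the tested secreted factor with the lowest log2 fold change. All are on the plus strand, at chr6:117168285-117168534, chr13:112463820-112464069 and chr11:4257318-4257567 in that order. Capitals mark matches to any of the motifs searched on both strands.
Cxcl12: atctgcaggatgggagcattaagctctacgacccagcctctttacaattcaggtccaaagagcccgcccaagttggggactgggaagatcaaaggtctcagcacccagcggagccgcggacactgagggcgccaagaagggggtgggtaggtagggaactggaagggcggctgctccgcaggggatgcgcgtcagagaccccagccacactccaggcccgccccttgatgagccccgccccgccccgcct
Il6st: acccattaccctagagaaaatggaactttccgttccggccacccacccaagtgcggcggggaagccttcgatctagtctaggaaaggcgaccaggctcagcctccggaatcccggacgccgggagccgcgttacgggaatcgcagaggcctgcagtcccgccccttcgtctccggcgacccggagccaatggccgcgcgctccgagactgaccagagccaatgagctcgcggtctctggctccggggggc
Lif: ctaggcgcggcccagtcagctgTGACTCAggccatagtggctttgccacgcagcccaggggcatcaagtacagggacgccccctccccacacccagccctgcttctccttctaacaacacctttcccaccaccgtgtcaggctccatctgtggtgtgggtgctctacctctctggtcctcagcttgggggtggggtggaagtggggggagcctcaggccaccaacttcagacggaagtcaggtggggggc

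The motifs were the NF-kappaB consensus, the p53 half-site consensus, the STAT motif TTCNNNGAA, the AP-1 motif TGANTCA and the hypoxia response core ACGTG. The Lif stretch held 1 match, to the AP-1 motif, 228 to 222 bases before the start. The Cxcl12 and Il6st stretches held none, which says only that these letters are not in these windows. The stretches had a GC content of 64.4%, 66.0% and 63.6%, against a median of 52.4% over all 32851 windows. RefSeq windows were matched for 28 of the 40 tested members (37 windows). The NF-kappaB consensus was in those of Csf1, Cxcl1 and Il1r1 (8.11% of member windows, 3.90% of all windows), and the AP-1 motif in those of Ccl27a, Il11, Il15ra and Lif (10.8% against 6.75%). The p53 half-site was in windows of Il12rb2 and Il1rap (5.41% against 7.13%), and the STAT motif in a window of Il12rb2 (2.70% against 7.02%). The hypoxia core was in windows of Cxcl1, Il1r1, Il1rap and Il6ra (10.8% against 16.6%). The differences between these shares were not tested.

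Few members were expressed at a level that could be tested, and 2 of them differed between sgp53 and sgNTC: Cxcl12 and Il6st, both higher in sgp53. Of the 123 members, 39 had no count in any library, 44 had counts below the filter on low counts, and 40 were tested: 19 secreted factors and 21 receptors. Differences were tested over all 13044 genes that passed the filter with edgeR's quasi-likelihood test, and genes with a Benjamini-Hochberg adjusted p under 0.05 were called. The 2 called members were 5% of those tested, where 6.45% of the 13044 genes were called (2.76% upward and 3.69% downward). No member was called lower. An unadjusted p under 0.05 was seen in 10 of 40 members, against 29.0% of all tested genes: Cxcl12, Il6st, Ccl5, Ccl7, Il11, Il1rl1 and Il4ra with higher and Lif, Il3ra and Il10rb with lower fitted levels. When line was added as a block, edgeR called the same 2 members, against 2.38% of all genes (0.966% higher, 1.42% lower), and so did limma-voom (5.35%, with 2.18% higher and 3.17% lower). DESeq2 called 9 members, 7 higher and 2 lower, against 18.1% of all genes (9.16% higher, 8.98% lower). The median log2 fold change was 0.33 for the secreted factors and 0.08 for the receptors, and -0.01 for all tested genes. The libraries of the groups did not overlap in 13 members (32.5%), 7 higher and 6 lower, against 36.8% of all tested genes (17.8% higher, 19.0% lower).

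**Figure D1:**
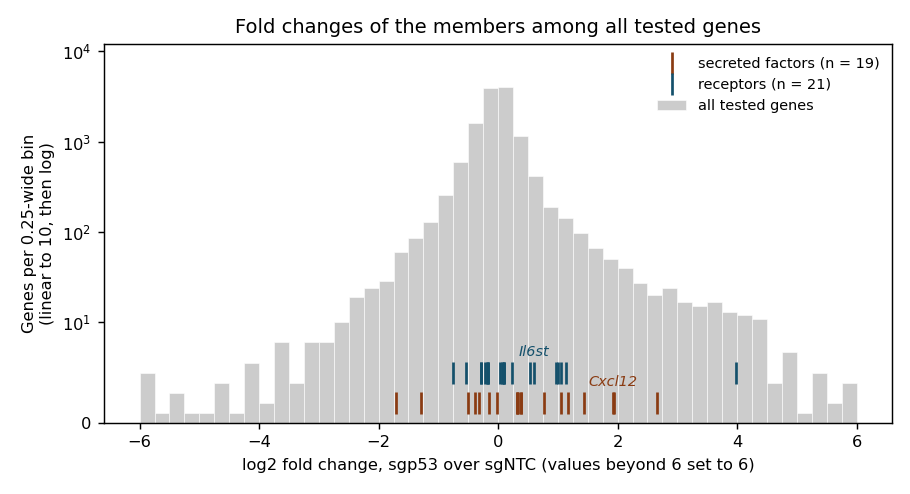
Histogram of log2 fold changes (sgp53 over sgNTC, x axis) of all tested genes (y axis, genes per bin, linear to 10 and logarithmic above), with 1 tick per tested secreted factor (n = 19) and receptor (n = 21). Most ticks lie within the body of the histogram, and the called members Cxcl12 and Il6st are labelled.

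Among the CXC and CX3C chemokines, Cxcl12 was called higher in sgp53. Cxcl12 (chromosome 6, 117168535 to 117181368) encodes SDF-1, the ligand of CXCR4 and ACKR3 that retains and attracts progenitor and immune cells. It was at 29.6, 28.5 and 39.1 CPM in lines 1, 2 and 3 of sgNTC and 132, 112 and 124 CPM in sgp53. Every sgp53 library stood above every sgNTC library. The group means of 32.4 ± 5.87 and 123 ± 10.4 CPM (SD, n = 3) gave a 3.79-fold rise (log2 fold change 1.92 with SE 0.14; adjusted p by edgeR = 0.00279; 0.0143 with the line as a block). Without line 1, edgeR's adjusted p was 0.0547, and without line 2 in the blocked fit it was 0.0862, so that the call was lost, with log2 fold changes of 1.802 and 1.92. In bulk RNA, more cells of a type and more RNA per cell cannot be told apart.

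The other tested chemokines of this class were not called. Cx3cl1, fractalkine, a chemokine anchored in the membrane, was at 62.8, 32.4 and 67.2 CPM in sgNTC and 35.8, 45.7 and 78.5 CPM in sgp53. The ranges of the groups overlapped almost completely (log2 fold change -0.02 with SE 0.37). Cxcl16, also membrane-anchored, was at 1.43 ± 0.148 and 1.802 ± 0.472 CPM. An exon of Cxcl16 overlaps Zmynd15 on the opposite strand. The strand setting of the counts is not given, so whether reads of such pairs were counted apart is not known. Cxcl1, a neutrophil attractant, was at 0.897 ± 0.510 and 1.11 ± 0.366 CPM.

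The CC chemokines had 5 tested members and no call by edgeR, with 2 at an unadjusted p under 0.05 and 2 called by DESeq2. Over all tested genes these shares were 29.0% and 18.1%. Ccl2, the monocyte attractant MCP-1 (chromosome 11, 82035577 to 82037452), was at 112, 20.3 and 38.3 CPM in sgNTC and 52.0, 51.5 and 51.4 CPM in sgp53. The sgp53 libraries were nearly equal, while sgNTC line 1 lay above and sgNTC lines 2 and 3 below them. The log2 fold change was -0.14 (SE 0.57, edgeR adjusted p = 0.887) and turned to 0.21 in the blocked fit and 0.82 without sgNTC line 1.

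Ccl5, RANTES, which attracts T cells and is also induced by interferon, was at 3.58, 6.23 and 3.08 CPM in sgNTC and 7.27, 15.3 and 26.8 CPM in sgp53. Ccl7, a monocyte attractant encoded next to Ccl2, was at 0.902, 0.978 and 0.406 CPM in sgNTC and 1.19, 2.83 and 10.5 CPM in sgp53. In both genes the groups did not overlap and sgp53 line 3 was the highest library. Their log2 fold changes were 1.94 (SE 0.51) and 2.66 (SE 0.84), with edgeR adjusted p = 0.0711 and 0.101, and 0.00119 and 0.00850 by DESeq2. Ccl25, a thymic and gut chemokine that shares exon sequence with Elavl1 on the opposite strand, was at 3.63 ± 1.11 and 2.93 ± 0.946 CPM. Ccl27a, a skin chemokine, was at 4.37 ± 0.696 and 5.41 ± 1.31 CPM. Ccl27a overlaps Il11ra1 on the opposite strand and has the near-identical copy Ccl27b, which had no count.

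Among the secreted interleukins, 7 of 37 were tested and none was called by edgeR. An unadjusted p under 0.05 was seen in 1 (29.0% of all tested genes), and 1, Il11, was called by DESeq2 (18.1% of all). Il11, a gp130 ligand that fibroblasts make, was at 12.1, 4.24 and 11.3 CPM in sgNTC and 14.6, 20.0 and 23.2 CPM in sgp53. The groups did not overlap, and the largest gap within a line was in line 2. The log2 fold change was 1.06 (SE 0.40, edgeR adjusted p = 0.141; 0.0419 by DESeq2).

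Il33, an alarmin of the IL-1 family that is stored in the nucleus, was at 28.9, 2.65 and 2.54 CPM in sgNTC and 12.4, 5.95 and 39.9 CPM in sgp53. In sgNTC line 1 was high and lines 2 and 3 low, and in sgp53 line 3 was the highest, so the groups overlapped widely (log2 fold change 0.77 with SE 1.12). Il34, a ligand of the CSF1 receptor, was at 1.29, 0.0362 and 1.66 CPM in sgNTC and 1.502, 1.81 and 4.91 CPM in sgp53. Its low value in sgNTC line 2 was 1 count, against 43 to 140 counts in the other libraries.

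Il24, an IL-10 family cytokine, was at 2.49, 3.62 and 3.52 CPM in sgNTC and 0.956, 2.45 and 0.491 CPM in sgp53, and Il7, a lymphocyte growth factor, was at 1.197 ± 0.0554 and 0.838 ± 0.0601 CPM. The groups did not overlap in either gene, with every sgp53 library below every sgNTC library. Their edgeR adjusted p was 0.186 and 0.196. Il17d was at 2.83 ± 0.559 and 3.71 ± 0.581 CPM, and Il15, which supports natural killer and memory T cells, was at or below 0.500 CPM in every library.

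Lif and Csf1 were the tested members of the remaining cytokines, and neither was called. Lif (chromosome 11, 4257568 to 4272514), leukemia inhibitory factor, signals through LIFR and gp130 and is a known p53 target. It was at 71.0, 49.5 and 84.2 CPM in sgNTC and 15.6, 36.0 and 10.9 CPM in sgp53. Every sgp53 library was below every sgNTC library, and the gap was smallest in line 2. The means were 68.2 ± 17.5 and 20.8 ± 13.3 CPM (log2 fold change -1.71 with SE 0.45; adjusted p by edgeR = 0.0717). Lif was called by DESeq2 (adjusted p = 0.000476), without sgp53 line 2 (edgeR adjusted p = 0.0350, log2 fold change -2.35) and without line 2 (0.0389, log2 fold change -2.54).

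Csf1, macrophage colony stimulating factor (chromosome 3, 107741048 to 107760469), was at 230, 342 and 176 CPM in sgNTC and 292, 262 and 418 CPM in sgp53. Both groups spanned a wide range and overlapped (log2 fold change 0.38 with SE 0.28; adjusted p by edgeR = 0.405). The soluble inhibitor Il18bp, which binds IL-18 and shares exon sequence with Numa1 on the opposite strand, was at 2.17 ± 0.700 and 1.66 ± 0.155 CPM.

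Between genes, levels are compared per kb of exon. In sgNTC, Ccl2 (50.1 ± 42.9 CPM per kb) and Csf1 (47.3 ± 16.0) were the secreted factors of highest mean and did not differ beyond their spread. Lif (15.7 ± 4.02) and Cx3cl1 (13.8 ± 4.82) came next, within the spread of each other. In sgp53, Csf1 (61.4 ± 15.7) and Ccl2 (45.4 ± 0.266) again led, followed by Ccl5 (17.1 ± 10.2), Cxcl12 (15.0 ± 1.27) and Cx3cl1 (13.6 ± 5.69), which lay within the spread of each other.

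**Figure D2:**
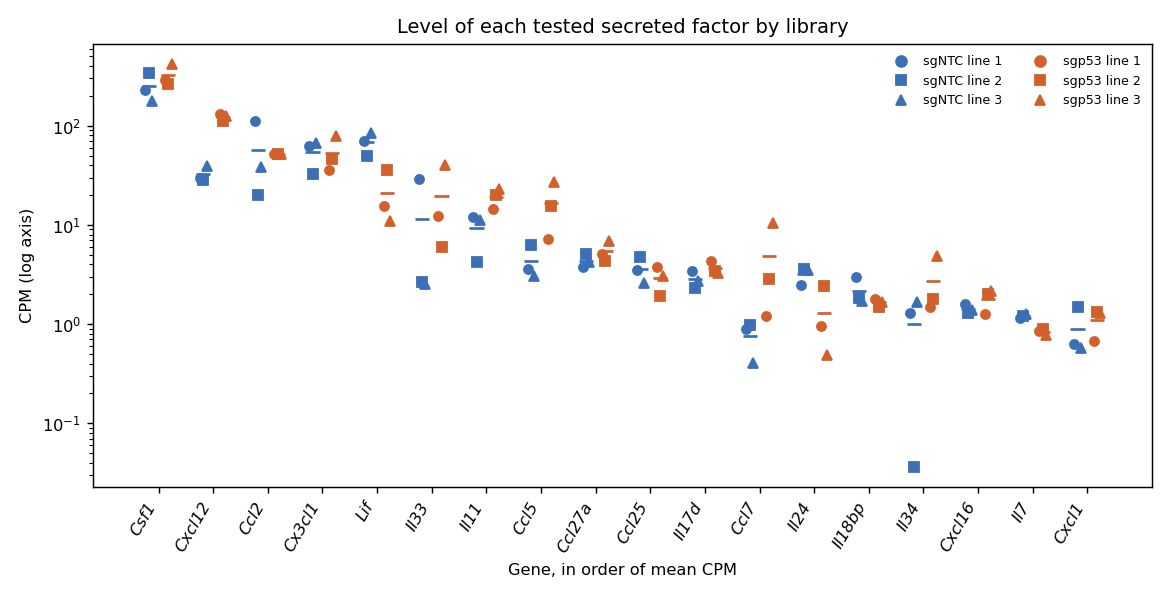
Level of each tested secreted factor (x axis, in order of mean CPM; y axis, CPM on a log scale) in the 3 sgNTC and 3 sgp53 libraries, with a bar at each group mean; Il15, with a library at 0, is not drawn. Cxcl12 and Ccl5 have all sgp53 points above all sgNTC points, Lif has them below, and CPM of different genes are not comparable because gene lengths differ.

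Among the receptors, Il6st was called higher in sgp53, together with Osmr, a partner chain of gp130 that the rule does not take. Il6st (chromosome 13, 112464070 to 112506860) was at 109, 112 and 112 CPM in sgNTC and 155, 172 and 177 CPM in sgp53. The sgNTC libraries lay close together, and all sgp53 libraries stood above them. The means were 111 ± 1.58 and 168 ± 11.7 CPM, a 1.51-fold rise (log2 fold change 0.60 with SE 0.06; adjusted p by edgeR = 0.00854; 0.0307 with the line as a block). The call was lost without line 1, 2 or 3 (edgeR adjusted p = 0.0616, 0.0927 and 0.111), and in the blocked fit without each of these lines (0.0841, 0.139 and 0.145), with log2 fold changes between 0.56 and 0.64. Osmr, the oncostatin M receptor, was at 16.3, 12.2 and 15.9 CPM in sgNTC and 29.5, 38.2 and 45.9 CPM in sgp53 (log2 fold change 1.35 with SE 0.19; adjusted p by edgeR = 0.0182). Osmr was not called in 7 of 17 alternatives, among them without sgNTC line 3 (edgeR adjusted p = 0.0734) and without sgp53 line 2 (0.0510).

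The other receptor chains that work with gp130 did not pass the test. Il6ra, which binds IL-6, was at 12.5 ± 0.980 and 13.4 ± 3.59 CPM, Il11ra1, which binds IL-11, at 21.8 ± 5.46 and 18.6 ± 4.21 CPM, and Il27ra at 2.65 ± 0.902 and 2.33 ± 0.268 CPM. Reads of Il11ra1 can include those of Ccl27a on the other strand, and its near-identical copy Il11ra2 had no count. Lifr, the other chain of the LIF receptor, which the rule does not take, was at 18.7 ± 3.04 and 21.9 ± 4.03 CPM.

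The receptors of the IL-1 family had no call by edgeR, and DESeq2, which called 18.1% of all tested genes, called Il1rl1. Il1rl1, ST2, which binds IL-33, was at 1.803, 1.196 and 0.880 CPM in sgNTC and 3.18, 6.14 and 52.6 CPM in sgp53. The groups did not overlap, but sgp53 line 3 stood far above every other library. The fitted log2 fold change was 3.98 (SE 1.14, edgeR adjusted p = 0.0840; 0.195 with the line as a block and 0.00588 by DESeq2). Its accessory chain Il1rap was at 74.2 ± 5.71 and 65.8 ± 3.35 CPM, and Il1r1, the signalling receptor for IL-1, at 42.6 ± 8.41 and 34.9 ± 7.83 CPM. Il1rl2, a receptor for the IL-36 cytokines, was at 8.20 ± 3.30 and 4.82 ± 1.51 CPM, and Il18rap, the accessory chain for IL-18, at 0.723 ± 0.278 and 1.42 ± 1.01 CPM.

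The IL-17 receptor chains Il17ra, Il17rc and Il17rd were tested and not called. Il17ra, the shared chain, was at 62.4, 58.1 and 59.3 CPM in sgNTC and 58.0, 50.0 and 51.9 CPM in sgp53. Each sgp53 library was lower, by a small amount (log2 fold change -0.17 with SE 0.07; adjusted p by edgeR = 0.190). Il17rc was at 32.3 ± 6.20 and 34.6 ± 2.04 CPM and Il17rd at 22.8 ± 5.34 and 23.7 ± 3.68 CPM.

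Receptors of the haematopoietic cytokines included 2 that DESeq2 called and edgeR did not, Il3ra and Il4ra, which were chosen after their values were seen. DESeq2 called 4 of the 21 tested receptors, against 18.1% of all tested genes. Il3ra, the IL-3 binding chain, was at 15.0, 19.3 and 16.9 CPM in sgNTC and 11.98, 12.8 and 10.7 CPM in sgp53. The groups did not overlap (log2 fold change -0.53 with SE 0.14; adjusted p by edgeR = 0.0659; 0.0124 by DESeq2). Il4ra, which binds IL-4 and serves IL-13 as well, was at 17.6, 10.9 and 14.3 CPM in sgNTC and 24.1, 17.1 and 44.6 CPM in sgp53. The lowest sgp53 library, line 2, fell within the sgNTC range (log2 fold change 1.00 with SE 0.37; adjusted p by edgeR = 0.136; 0.0336 by DESeq2). Il13ra1, the partner of Il4ra, was at 45.8 ± 3.796 and 48.3 ± 8.38 CPM, and Il15ra at 10.3 ± 0.979 and 12.03 ± 0.780 CPM. The IL-10 receptor chain Il10rb was at 39.0 ± 5.33 and 31.9 ± 1.24 CPM and did not overlap between groups (edgeR adjusted p = 0.139). Il20rb, Il12rb1, Il12rb2 and Il2rg, the common gamma chain, were at 3.31 CPM (Il20rb in sgp53 line 1) or less in every library. Il12rb2 shares exon sequence with Serbp1, and Il27ra with Palm3, on the opposite strand. Predicted genes on the opposite strand overlap exons of Il3ra, Il4ra, Il6ra, Il1rap, Il34 and Il7, and others on the same strand overlap Il10rb and Il2rg.

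**Figure D3:**
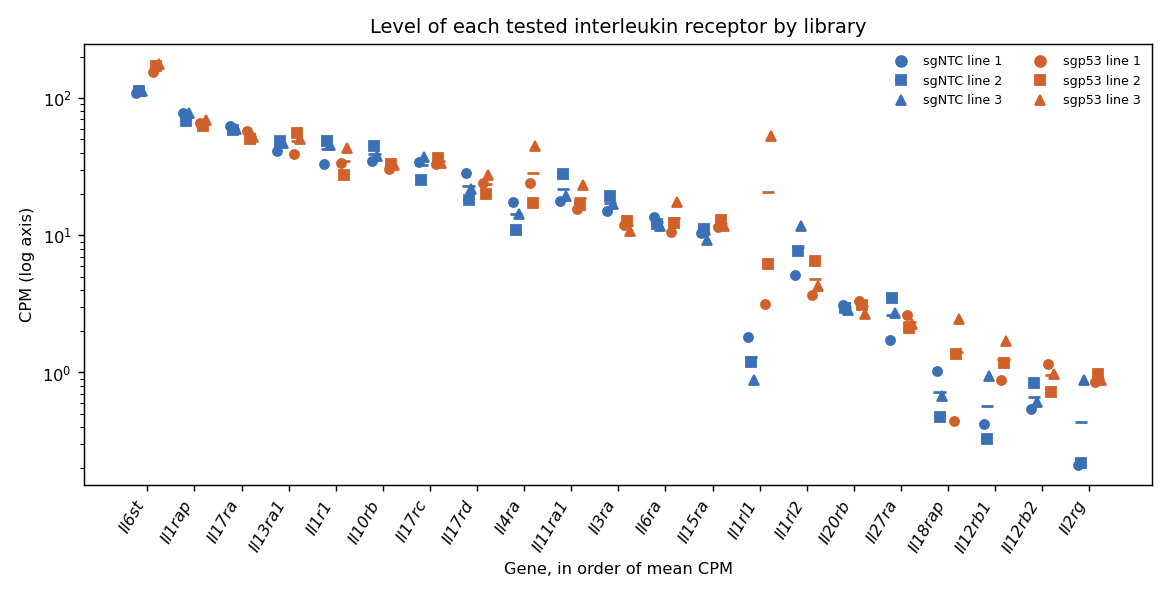
Level of each tested interleukin receptor (x axis, in order of mean CPM; y axis, CPM on a log scale) in the 3 sgNTC and 3 sgp53 libraries, with a bar at each group mean. The sgNTC points of Il6st lie close together and its sgp53 points lie above them, and Il1rl1 has 1 sgp53 library, line 3, at 52.6 CPM.

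The spread between lines was measured as the range of log2 CPM over the 3 lines of a group. Each line has 1 library a group, so this range cannot separate variation between lines from variation between single libraries. It was widest among members for Il34 in sgNTC and for Il1rl1 in sgp53. The median range was 0.67 in sgNTC and 0.65 in sgp53 for the tested members, against 0.24 and 0.25 for all tested genes. The range exceeded 1 in 14 of 40 members in sgNTC and 11 in sgp53 (35% and 27.5%), against 11.3% and 9.76% of all tested genes. The range depends on the level, and 17 of the 40 members had a mean below 5 CPM: their median range was 0.88 in sgNTC and 0.73 in sgp53, against 0.74 and 0.70 for the 2626 genes of that level. For the 12 members with a mean of 30 CPM or more, the median range was 0.51 in sgNTC and 0.23 in sgp53, against 0.16 and 0.17 for the 6789 genes of that level. For the 11 members between 5 and 30 CPM it was 0.69 and 0.72, against 0.28 and 0.29 for 3629 genes.

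The widest ranges in sgNTC were those of Il34 (4.09), Il33 (3.47), Il15 (2.60) and Ccl2 (2.47), and in sgp53 those of Il1rl1 (4.02), Ccl7 (3.07), Il33 (2.73) and Il18rap (2.31). Il15 had 11, 0 and 3 counts in sgNTC lines 1, 2 and 3, and the low value of Il34 was 1 count. The ranges of these 2 genes in sgNTC therefore depend on the prior count. The range of Ccl2 was 0.02 in sgp53. The narrowest range in sgNTC was that of Il6st (0.04). A test of the line terms in the model with line and group called 0 of 13044 genes by edgeR, and 0 by limma-voom. At an unadjusted p under 0.05 it gave 461 genes (3.53%), of which 1 was a member, Il13ra1. That test has 2 libraries a line and 2 residual degrees of freedom.

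The differences between sgp53 and sgNTC within a line varied in size for several members. For Cxcl12 they were 2.16, 1.97 and 1.67 on the log2 scale in lines 1, 2 and 3, and for Il6st 0.50, 0.62 and 0.66. For Lif they were -2.18, -0.46 and -2.93, and for Il24 -1.33, -0.55 and -2.69, so that both were smallest in size in line 2. Il1rl1 (0.79, 2.30 and 5.80), Ccl7 (0.38, 1.47 and 4.48) and Ccl5 (1.01, 1.29 and 3.09) had the largest difference in line 3. The sgp53 library of line 3 was the highest of the 6 in 15 of the 40 tested members, and the other libraries in 4 to 8 each. The same count was not made over all tested genes, so it cannot be read as particular to the members. In the sgp53 library of line 3 Rn45s, a precursor of ribosomal RNA, was at 3338 CPM and in the others at 636 to 864 CPM. Thy1 and Col1a1 were also highest there, while Col1a1 was higher in sgp53 than in sgNTC in all 3 lines. The part of these differences in the results was not tested. Without line 3 the log2 fold change was 1.63 for Il1rl1, 1.10 for Ccl7 and 1.21 for Ccl5.

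**Figure D4:**
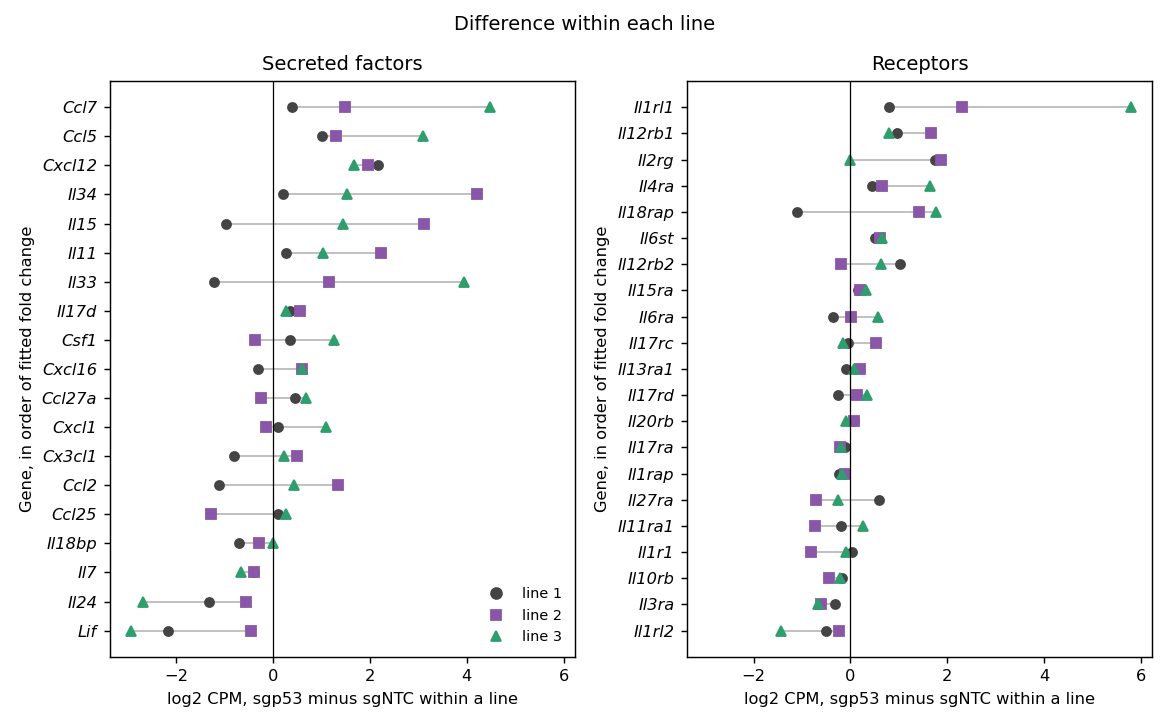
Difference in log2 CPM, sgp53 minus sgNTC, within lines 1, 2 and 3 (x axis) for each tested secreted factor and receptor (y axis, in order of the fitted fold change), with a grey bar from the lowest to the highest line. The points of Cxcl12 and Il6st lie close together right of 0, those of Lif and Il24 lie left of 0, and those of Il33 and Ccl2 lie on both sides.

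Of the 83 members that were not tested, 39 had no count. Il1b, Il10, Il4, Il13, Il2, Il17a and Cxcl13 were among these. Csf2, granulocyte-macrophage colony stimulating factor, had 3 counts in the sgNTC libraries together and 1 in the sgp53 libraries. The same sums were 3 and 11 counts for Csf3, 2 and 1 for Il1a, and 1 and 5 for Cxcl2. Of the 44 untested members with counts, 6 reached 10 counts in a library, and 3 of these are described first. Il1rn, the IL-1 receptor antagonist, had 2, 0 and 2 counts in sgNTC lines 1, 2 and 3 and 14, 12 and 92 counts in sgp53. Il6 had 3, 2 and 1 counts in sgNTC and 8, 7 and 10 in sgp53. Cxcl5, a neutrophil attractant, had 0 counts in sgNTC and 1, 1 and 20 in sgp53.

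Il1rn and Il6 were higher in every sgp53 library than in any sgNTC library, while 20 of the 22 Cxcl5 counts came from sgp53 line 3. Il1rn, Il6 and Cxcl5 reached 10 counts in sgp53 libraries alone, so their choice favoured that group. In a fit without the filter on low counts, none of these genes was called (edgeR adjusted p = 0.0716 for Il1rn, 0.0984 for Il6 and 0.219 for Cxcl5). Cxcl14 had 2, 5 and 19 counts in sgNTC and 3, 4 and 68 in sgp53, so that line 3 was highest in both groups. Il16 had 1, 0 and 0 counts in sgNTC and 3, 1 and 13 in sgp53, and Il18 had 31 counts in the sgNTC libraries together and 34 in the sgp53 libraries. Il16 shares exon sequence with Stard5 on the opposite strand.

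**Figure D5:**
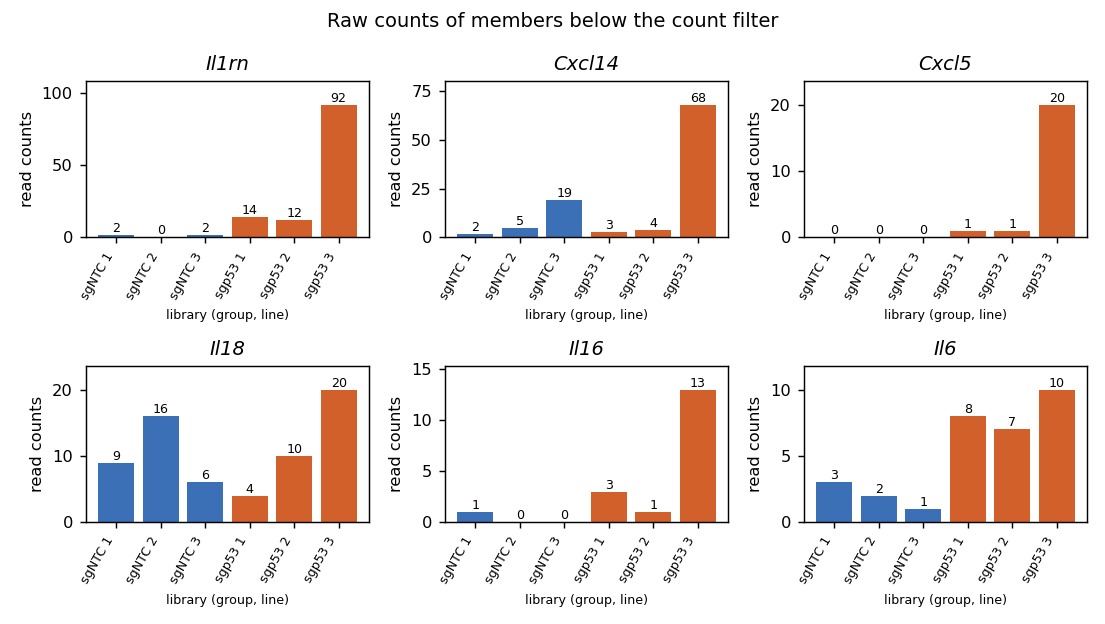
Raw read counts (y axis) of the 6 members below the count filter that reached 10 counts in a library, in each sgNTC and sgp53 library (x axis, bars, value printed above). The sgp53 library of line 3 is the highest bar in all 6 genes, at 92 counts for Il1rn and 68 for Cxcl14. Il6, Cxcl5 and Il16 reached 10 counts in that library alone, so the choice of genes favours this pattern.

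Receptors for the chemokines were scarce. Of 23 chemokine receptor genes, 5 were tested and none was called by edgeR. An unadjusted p under 0.05 was seen in 2 (29.0% of all tested genes), and DESeq2 called 2 (18.1% of all). The median log2 fold change of the 5 was -0.73. Ccr10, Cxcr2, Xcr1 and Ccrl2 among them had means of only 0.640, 0.391, 0.661 and 0.382 CPM over all libraries. Cxcr7, the older symbol of Ackr3, a scavenging receptor for CXCL12, was at 2.25, 1.34 and 5.55 CPM in sgNTC and 3.11, 11.8 and 17.4 CPM in sgp53. The ranges overlapped, with lines 2 and 3 of sgp53 above all other libraries (log2 fold change 1.82 with SE 0.74; adjusted p by edgeR = 0.164). Cxcr2, a receptor for CXCL1 and CXCL5 that was named after its values were seen, was at 0.421, 1.01 and 0.576 CPM in sgNTC and 0.0341, 0.195 and 0.105 CPM in sgp53. Every sgp53 library was below every sgNTC library (log2 fold change -2.49 with SE 0.64; adjusted p by edgeR = 0.0647; 0.0402 by DESeq2). The counts of Cxcr2 were 14, 28 and 17 in sgNTC and 1, 7 and 3 in sgp53. It passed the filter on low counts through sgNTC alone, so the filter favoured a gap in this direction. Cxcr4, the signalling receptor for CXCL12, had at most 10 counts in a library, and Ccr2, a receptor for CCL2, had none. Xcr1 was at 0.683 ± 0.210 and 0.639 ± 0.149 CPM.

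For the other genes of these pathways, calls are given by list. Over all 13044 tested genes, edgeR called 6.45% and DESeq2 18.1%, and 29.0% had an unadjusted edgeR p under 0.05. Of 9 tested genes of the colony stimulating factor and gp130 family outside the rule, Osmr was the 1 called. Of 22 JAK-STAT and SOCS genes none was called (6 had an unadjusted p under 0.05, and DESeq2 called 2); Ptpn11, a phosphatase, was at 366 ± 6.91 and 391 ± 31.8 CPM and Jak1, a kinase used by gp130, at 200.5 ± 9.82 and 223 ± 23.1 CPM. Of 14 adaptors and regulators of the IL-1 receptor and related receptors none was called (7 at an unadjusted p under 0.05, 4 by DESeq2). Tab2 was at 181 ± 3.89 and 195 ± 3.63 CPM and the kinase Map3k7 at 177 ± 4.06 and 155 ± 2.08 CPM. The median log2 fold changes of these lists were 0.23, -0.08 and -0.19.

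Of 15 genes of NF-kappaB subunits, inhibitors and the IKK complex, 1 was called, against 6.45% of all tested genes. It was Chuk, the kinase IKK-alpha of that complex. Chuk was at 117, 122 and 116 CPM in sgNTC and 88.3, 87.0 and 79.8 CPM in sgp53, a fall by 0.48 on the log2 scale (SE 0.06; adjusted p by edgeR = 0.0128). Chuk was not called without sgNTC line 3 (edgeR adjusted p = 0.0612) or without any 1 line (0.0974 to 0.114). Of 8 tested NF-kappaB response genes, Ptgs2 and Ptx3 were called higher, where 2.76% of all tested genes were called higher. Ptgs2, cyclooxygenase-2, rose from 32.7 ± 13.9 to 129 ± 50.4 CPM (edgeR adjusted p = 0.0404; 0.0562 with the line as a block). Ptx3, a secreted pattern recognition protein, rose from 0.218 ± 0.226 to 4.21 ± 1.83 CPM (edgeR adjusted p = 0.0464; 0.110 with the line as a block). Its counts were 15, 0 and 6 in sgNTC and 62, 198 and 143 in sgp53. Ptx3 passed the filter on low counts through the sgp53 libraries, so the filter favoured a gap in this direction. Of 9 regulators of chemokine RNA, the transcription factor Cebpd was called higher (4.82 ± 0.570 to 10.7 ± 1.74 CPM, edgeR adjusted p = 0.0228; 0.0728 with the line as a block). The median log2 fold changes of the tested genes of these lists were 0.02, 0.40 and -0.0047. The calls of Ptgs2, Ptx3 and Cebpd were lost without any 1 of sgp53 line 1, 2 or 3 or sgNTC line 2 or 3 (edgeR adjusted p from 0.0509 to 0.154).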

How the data were processed

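RNA was sequenced from 6 libraries with a stranded TruSeq kit, per the labels' protocols. The authors deposited unnormalized read counts, 1 row a gene symbol and 1 column a library. Per the submitters' processing notes, CASAVA 1.8, STAR, DESeq2 and the build mm10 were used, with no role stated. Which counter, annotation and strand setting made the counts is not given in the sources used here. The table had 0 unmapped columns. In R 4.3.3, counts were normalized by TMM and filtered by filterByExpr on the groups, and sgp53 was compared with sgNTC by the quasi-likelihood test of edgeR 4.0.16 (no covariates, Benjamini-Hochberg adjustment over 13044 genes, threshold 0.05). Positive log2 fold changes mean higher in sgp53. The SE was taken as the log2 fold change over the root of the F statistic. Levels are CPM on the TMM-scaled library total; log2 CPM has a prior count of 2. An exact permutation test of 3 against 3 cannot go below 0.1.

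The line numbers pair the libraries because both libraries of a number come from the same line. Correlations of paired deviations from group means were 0.089, 0.0018 and -0.027 for lines 1, 2 and 3. No 2 libraries of a group agreed within sampling noise (chi-square per degree of freedom 22.9 to 61.3). Alternatives were the line as a block, DESeq2 1.42.0, limma-voom (limma 3.58.1), RLE size factors, no filter, and leaving out each library or line. Tests were checked on simulated counts.

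The members, gene lists and tests were chosen with earlier results of these data known. Named genes are the called members, the 6 of highest mean CPM and the 2 of widest range in each class, and untested members with 10 counts in a library. From each pathway list they are up to 3 called genes of smallest p or the 2 of highest CPM. Other members, receptors and markers were named after their values were seen. Lengths are exon unions of GENCODE M21 and coordinates those of RefSeq on GRCm38.p6, which matched all 123 members.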

Additional observations from a re-analysis of the deposited data

Results flagged for a closer look

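In 3 of the 40 tested members (7.5%, against 1.86% of all tested genes) sgp53 was at least 1 log2 unit below sgNTC within a line and at least 1 above it within another. The difference between lines was not tested, since each line has 1 library a group. For Ccl2 the log2 difference was -1.11 in line 1 and 1.34 in line 2, for Il33 it was -1.22 in line 1 and 3.94 in line 3, and for Il18rap it was -1.09 in line 1 and 1.76 in line 3. Il18rap had between 0.444 and 2.46 CPM, a level at which counting error is large.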

How the results depend on the processing

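The line block, with the line number as the pairing, moved the genes called higher from 360 to 126 and lower from 481 to 185, and changed no call among the members. DESeq2 called 1195 genes higher and 1172 lower, with 4 secreted factors and 3 receptors higher and 1 of each lower. The cause was not tested. Leaving out a library or a line gave 4 to 261 genes higher and 15 to 464 lower, with fewer samples in each fit. It gave 0 to 1 secreted factors higher (0 without line 1), 0 to 1 lower (1, Lif, without sgp53 line 2 and without line 2), and 0 to 1 receptors higher (0 without any line). In the replicate block without line 1, 2 or 3, 77, 0 and 5 genes were higher and 66, 0 and 9 lower. There the secreted factors called higher were 0 without line 2, and the receptors 0 without each line.

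Of the results for single genes, 28 turned in direction under an alternative, all in genes that were not called. Ccl2 was at 0.21 with the line block, 0.18 by limma-voom, 0.88 and 0.097 in the block without lines 1 and 3, and -0.55 to 0.82 with a library or line left out. The same leave-out ranges were -0.79 to 3.14 for Il33, -0.047 to 0.81 for Csf1, -0.054 to 0.87 for Cxcl1, -0.56 to 0.18 for Ccl25, -0.40 to 0.32 for Cx3cl1, -0.027 to 0.21 for Il13ra1 and -0.48 to 0.22 for Xcr1. In the block without line 3, Il33 was at -0.085, Csf1 at -0.021 and Cxcl1 at -0.030. In the block without line 2, Ccl25 was at 0.19 and Xcr1 at 0.017, and in the block without line 1, Cx3cl1 was at 0.36 and Xcr1 at 0.26. Direction and side of the threshold were kept in 587 results, 73 were no longer called and 9 were newly called. Members with a mean below 5 CPM, 17 of 40, are limited by depth.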
